A study of Mus musculus with 19 samples.

Results

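Squamous cell carcinomas induced in mouse skin through the Ivl promoter fell into 3 tumours with high Sox2 and 3 with low Sox2, and these 2 groups are compared here across all other genes. The 6 Ivl tumours are part of 19 bulk poly(A) RNA-seq libraries, the others being 9 tumours induced through Krt5 or Krt14 (K5/K14) and 4 normal skin samples. The groups were chosen from the measured values. A tumour was placed in the Sox2-high group when its Sox2 count, expressed per 1000000 counts of its library (CPM), was 8 or more, and in the Sox2-low group otherwise. Ivl tumours 1, 4 and 5 formed the high group and Ivl tumours 2, 3 and 6 the low group.

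All 6 tumours came from female mice in which tamoxifen activated CreERT2, driven by the involucrin (Ivl) promoter, and thereby switched on the oncogenic BRAFV600E allele. Induction took place between 7 and 20 weeks of age on a C57BL/6J background. Ivl-CreERT2 acts in involucrin-positive cells, which the study regards as differentiation-committed progenitors, whereas the K5 and K14 drivers act in the basal keratinocytes. The skin samples came from wild-type (WT) females. Nothing in the genotype labels separates Sox2-high from Sox2-low tumours. According to the study, Ivl tumours arose at several body sites, and the site of each library was not used here.

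SOX2 is an HMG-box transcription factor that can bind DNA within closed chromatin. It maintains pluripotent cells, specifies the foregut and oesophageal epithelium and is frequently amplified in squamous carcinomas of lung and oesophagus. In normal skin it is largely confined to the dermal papilla of some hair follicles and to Merkel cells, while the interfollicular epidermis has little of it. Together with TRP63 and PITX1 it has been placed in a circuit that favours self-renewal over the differentiation factor KLF4 in squamous tumours.

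Sox2 (ENSMUSG00000074637) is a gene of 1 exon on the plus strand of chromosome 3, at 34650405 to 34652461 in GRCm38. It stood at 14.4, 26.9 and 26.8 CPM in Ivl tumours 1, 4 and 5, from 977, 1573 and 1368 counts. The level was 2.94, 3.29 and 3.62 CPM in Ivl tumours 2, 3 and 6, from 173, 187 and 233 counts. No Ivl tumour lay between 3.62 and 14.4 CPM, the values just outside and just inside the cut. The means were 22.7 ± 7.20 (SD, n = 3) and 3.28 ± 0.338 (SD, n = 3) CPM. These values define the groups and were given no test. The Sox2 counts of all libraries had been corrected for batch by the authors, and how far that moved them was not tested. The Sox2-low tumours were still above all 9 K5/K14 tumours, which ranged from 0.1102 to 1.323 CPM, and above the 4 skin samples, at 1.04 to 2.55 CPM. Set against a keratinocyte gene of the same library, these same Sox2 values came to 35.1, 84.6 and 86.6 counts per 1000 Trp63 counts in the high tumours and 10.6, 7.61 and 16.2 in the low ones. The order of tumours depended on the gene used, since per 1000 Krt5 counts Ivl tumour 1 was highest, with 5.35 Sox2 counts.

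**Figure D1:**
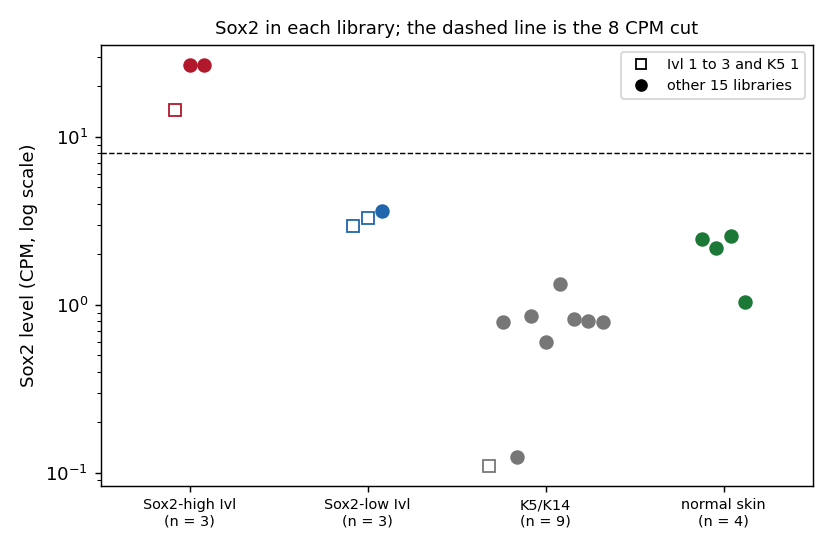
Sox2 level in CPM of the library total (y axis, log scale) for each of the 19 libraries by group (x axis). Open squares are Ivl tumours 1 to 3 and K5 tumour 1, filled circles the other 15 libraries, and the dashed line the cut at 8 CPM; the 3 high tumours sit between 14.4 and 26.9 CPM and the 3 low tumours between 2.94 and 3.62 CPM.

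Ivl tumours 1 to 3 looked like part of a separately adjusted batch, together with K5 tumour 1. Over 13954 genes above 2 CPM, the mean of these 4 libraries lay within 0.1 on the log2 scale of the mean of the other 15 for 96.6% of genes, against 15.2% when Ivl tumours 4 to 6 were set against the other 16. The deposited counts had been corrected for batch, and the 15 libraries include all 4 skin samples while the set of 4 includes none. The set holds 1 high and 2 low tumours. Values within the set (Ivl 1 against 2 and 3) and outside it (Ivl 4 and 5 against 6) are therefore given beside many of the results. In each of these contrasts 1 group is a single tumour, assumed to vary like the other groups, which supply the spread. The low tumours of the set also had Rn7sk, a short nuclear RNA without a poly(A) tail, at 1283 and 934 CPM, against 2.12 to 13.3 CPM in the other 4 Ivl tumours and 2279 to 3275 CPM in skin. Ivl tumours 4 and 5 were the closest of the 15 pairs of Ivl tumours, with a chi-square of 28.7 per degree of freedom, against 126 for the next pair. No pair agreed within sampling noise, so that all 6 counted as separate samples. Nothing in the labels says whether they came from separate animals, so the p-values measure spread between samples. That spread is pooled over all 19 libraries, so that much of it comes from K5/K14 tumours and skin. Total counts were 51118833 to 68006115 per Ivl tumour.

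All levels below are CPM after TMM scaling, which corrects the library totals for composition. Both groups carried keratinocyte genes at high level. Krt14 stood at 5639, 38310 and 45640 CPM in the high tumours and at 26220, 23970 and 41640 CPM in the low tumours, so that Ivl tumour 1 had the lowest value. The basal keratin Krt5 was lowest there too, with 2805 CPM in Ivl tumour 1 and 6660 to 10410 CPM in the other 5. Trp63, the master regulator of stratified epithelium, ranged from 268 to 428 CPM and the suprabasal keratin Krt10 from 3163 to 22190 CPM.

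Across 32030 genes other than Sox2, 1604 differed between the groups at an adjusted p under 0.05 (edgeR quasi-likelihood test), which is 5.01% of those tested. Of these, 178 (0.556%) were higher and 1426 (4.45%) lower in Sox2-high tumours. Of the lower genes 1358 changed by more than 2-fold, and of the higher genes 98. The 3 high tumours lay above all 3 low tumours for 2501 genes (7.81%) and below them for 4144 (12.9%). The median log2 fold change was -0.06 over all genes. Of the 1426 lower genes, 1401 (98.2%) had a higher mean in normal skin than in K5/K14 tumours, libraries that took no part in the split. The share was 62.9% for all genes tested and 19.1% for the 178 higher genes. The K5/K14 and skin libraries supplied part of the spread in the fit and went through the same batch correction. The shares are therefore not independent of the calls.

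The number of calls varied with the tumours compared. It was 86 when Ivl tumour 1 was left out and 4489 when Ivl tumour 6 was. Within the set of 4, 702 genes were higher and 1004 lower in Ivl tumour 1. Outside it, with Ivl tumours 4 and 5 against 6, no gene passed in edgeR. Ivl tumour 6 was the only low tumour there, so that contrast cannot show whether the groups differ. Of the 178 higher genes, 176 were also higher outside the set, and of the 1426 lower genes 1293 were also lower, but these tumours had taken part in the calls. The median change of the lower genes was -3.50 within the set and -1.15 outside it. Both contrasts hold a group of a single tumour, so a direct test of their difference cannot show whether they are alike.

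**Figure D2:**
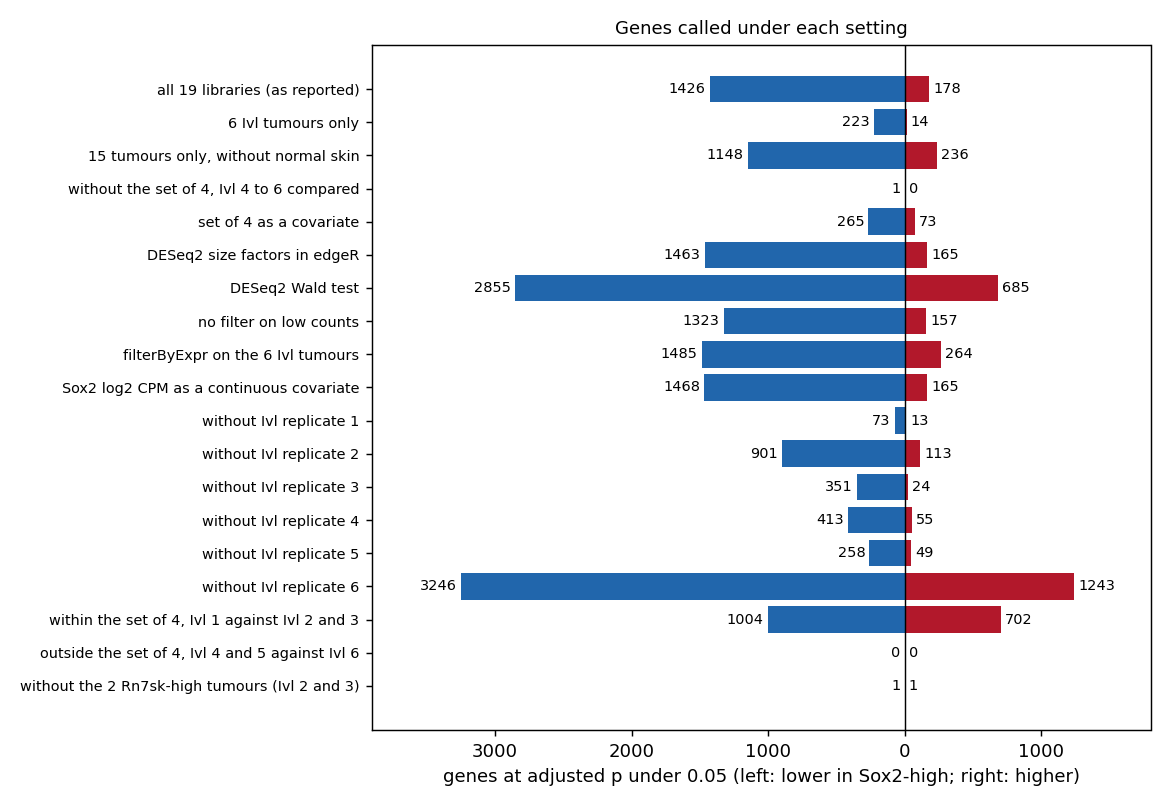
Number of genes at an adjusted p under 0.05 (x axis, lower in Sox2-high to the left and higher to the right) under each choice of libraries, scaling, filter and test (y axis). The count of 1426 lower and 178 higher genes falls to 0 and 0 when Ivl tumours 4 and 5 are compared with Ivl tumour 6 alone.

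The 10 protein-coding genes with the smallest p among those with a fitted rise of more than 2-fold and no overlap between groups were led by Glyat, which encodes a glycine N-acyltransferase. Glyat stood at 7.30, 12.3 and 8.20 CPM in the high tumours and 1.07, 1.26 and 1.98 CPM in the low tumours. The groups were well apart, with a log2 fold change of 2.69 ± 0.45 (SE) and an adjusted p of 0.00466, and of 2.65 within and 2.37 outside the set. Ulbp1, a ligand of the NKG2D receptor of natural killer cells, reached 10.8, 24.1 and 18.8 CPM against 3.51, 5.64 and 3.93 CPM, a rise of 2.04 ± 0.34 on the log2 scale (adjusted p 0.00475), with 1.23 within and 2.45 outside the set. The RNA helicase gene Ddx59 changed less, with 35.0, 29.1 and 45.3 CPM against 11.6, 13.0 and 17.8 CPM and a log2 fold change of 1.37 ± 0.23 (adjusted p 0.00529), which was 1.51 within and 1.07 outside the set.

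Fabp4, a fatty acid-binding protein best known from adipocytes, had the highest level of the 10 and lies on chromosome 3 at 10204088 to 10208576. It stood at 1598, 1684 and 3474 CPM in the high tumours and 121, 155 and 63.7 CPM in the low tumours. The rise of 4.31 ± 0.78 (log2, adjusted p 0.00766) was 3.53 within the set and 5.34 outside it. K5/K14 tumours averaged 455 CPM (SD 199, n = 9). Other adipocyte genes went the other way. Lpl, the lipoprotein lipase gene, read 4.10, 21.8 and 21.4 CPM in the high tumours and 159, 308 and 30.3 CPM in the low ones, and Plin4, which coats lipid droplets, 2.15, 5.36 and 2.69 CPM against 181, 67.7 and 10.8 CPM. Of 12 adipocyte genes 1 was higher and 3 were lower, the third being the adrenergic receptor gene Adrb3. Outside the set Adrb3 was nearly level, with a log2 fold change of -0.11. None of the 12 was lower at the threshold when any of tumours 1 to 5 was left out.

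Isx, an intestinal homeobox gene, was read at 97, 31 and 115 counts in the high tumours and at 0, 0 and 1 count in the low tumours. The summed counts, scaled to the library sizes, gave a ratio of 274, with an exact 95% interval of 48.7 to 10900 that covers counting error only. The cGMP-dependent kinase gene Prkg2 stood at 59.3, 72.4 and 52.0 CPM against 6.16, 13.3 and 20.4 CPM (log2 fold change 2.20 ± 0.43, adjusted p 0.00940). Papln, encoding an extracellular matrix protein, stood at 21.9, 17.1 and 13.5 CPM against 6.12, 3.91 and 2.02 CPM. The other members were the kinesin gene Kif17, the teneurin gene Tenm3 and Gap43, a growth-cone gene, with log2 fold changes of 1.81, 1.43 and 2.20. Gap43 was at 5.68 to 6.09 CPM in the high and at 0.739 to 1.71 CPM in the low tumours. None of the 10 overlapped between groups, which the rule required.

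The 10 genes chosen likewise among those lower were led by Kalrn and Mme. Kalrn, a guanine nucleotide exchange factor of neurons, was at 6.52, 9.37 and 8.01 CPM in Sox2-high tumours and at 26.3, 29.4 and 17.9 CPM in Sox2-low tumours. The difference of -1.62 ± 0.22 (log2, adjusted p 0.00302) left the high tumours near the K5/K14 mean of 9.74 CPM and the low tumours near the skin mean of 30.7 CPM, and was -2.10 within and -1.04 outside the set. Mme, encoding neprilysin, stood at 0.6148, 1.786 and 1.101 CPM against 14.1, 29.2 and 15.8 CPM (-4.08 ± 0.56, adjusted p 0.00302), or -5.13 within and -3.45 outside the set. Ndnf, a secreted neurotrophic factor, stood at 0.523, 0.417 and 0.562 CPM against 4.10, 9.89 and 4.35 CPM.

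Among the other 7, Gpr22, Smco1 and the potassium channel gene Kcnc1 had 0 or 1 count in each high tumour. With 3 counts per library as the limit that a count of 0 allows, Gpr22, at 0 in all 3, was at least 9.87-fold lower there. For Smco1 and Kcnc1, with 1 count each, the low tumours stood above the high ones by ratios of 167 (29.6 to 6630) and 392 (70.1 to 15500). The sarcoglycan gene Sgcd and the dystrophin-related gene Drp2, both of the complex that ties the cytoskeleton to the matrix, were lower by -4.15 and -2.76 on the log2 scale. Sema6c and Nrcam, which guide axons, were lower by -2.97 and -5.01. In skin these 10 genes averaged 2.18 to 30.7 CPM, and in all 10 the skin mean was above the Sox2-high mean.

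**Figure D3:**
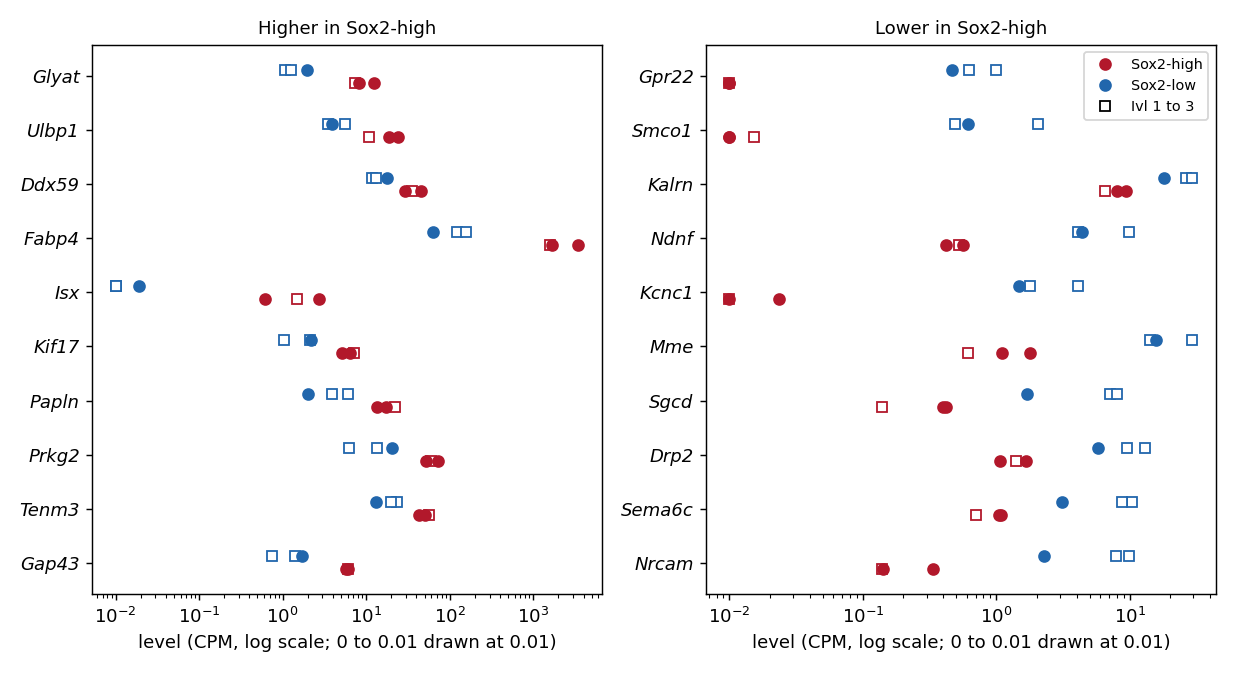
Level of the 10 higher and 10 lower genes (y axis) in each Ivl tumour in CPM after TMM scaling (x axis, log scale; values up to 0.01 are drawn at 0.01). Red points are Sox2-high and blue Sox2-low tumours, with open squares for Ivl 1 to 3; no gene overlaps between the groups, Fabp4 reaching 3474 CPM in a high tumour.

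Among the gene lists, differentiated skeletal muscle had the lowest median fold change. List members are counted by the edgeR test unless said otherwise, and DESeq2, another test, called more in many lists. Of 22 muscle genes tested, 15 were lower in Sox2-high tumours and none was higher, and the list median was -8.26 on the log2 scale, or -8.08 with 6 genes at no more than 3 counts in each high tumour set to their bound. Summed over the list, muscle RNA came to 24.2, 33.1 and 30.8 CPM in the high tumours and to 8540, 3471 and 902 CPM in the low tumours. The groups were far apart, and all 22 genes were lower in every high tumour, against 12.9% of all genes. The fast myosin gene Myh4 had 0 or 1 count per high tumour and 1507, 98.9 and 33.7 CPM in the low ones. Ttn, encoding the sarcomere spring titin, stood at 0.415, 1.37 and 1.34 CPM against 2269, 1040 and 23.4 CPM. Des, the intermediate filament of muscle, stood at 2.77, 5.22 and 5.79 CPM against 191, 147 and 58.4 CPM (-4.85 ± 0.77, adjusted p 0.00466).

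K5/K14 tumours spanned 34.0 to 1006 CPM on this muscle sum and skin 4309 to 16850 CPM. In CPM of the library total, the mean of the muscle sum was 3224 over the set of 4 and 3657 over the other 15 libraries, but 211 over the 11 tumours among those 15. Outside the set the median was -5.83, all 22 genes stayed lower in Ivl tumours 4 and 5 and none passed the test. The count of 15 was 1 without Ivl tumour 1, 6, 4, 3 and 2 without tumours 2, 3, 4 and 5, and 21 without tumour 6. In bulk tissue, fewer cells of a type cannot be told apart from less RNA per cell. The part of muscle in the sample, of Rn7sk and of the batch correction in the result was not tested.

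**Figure D4:**
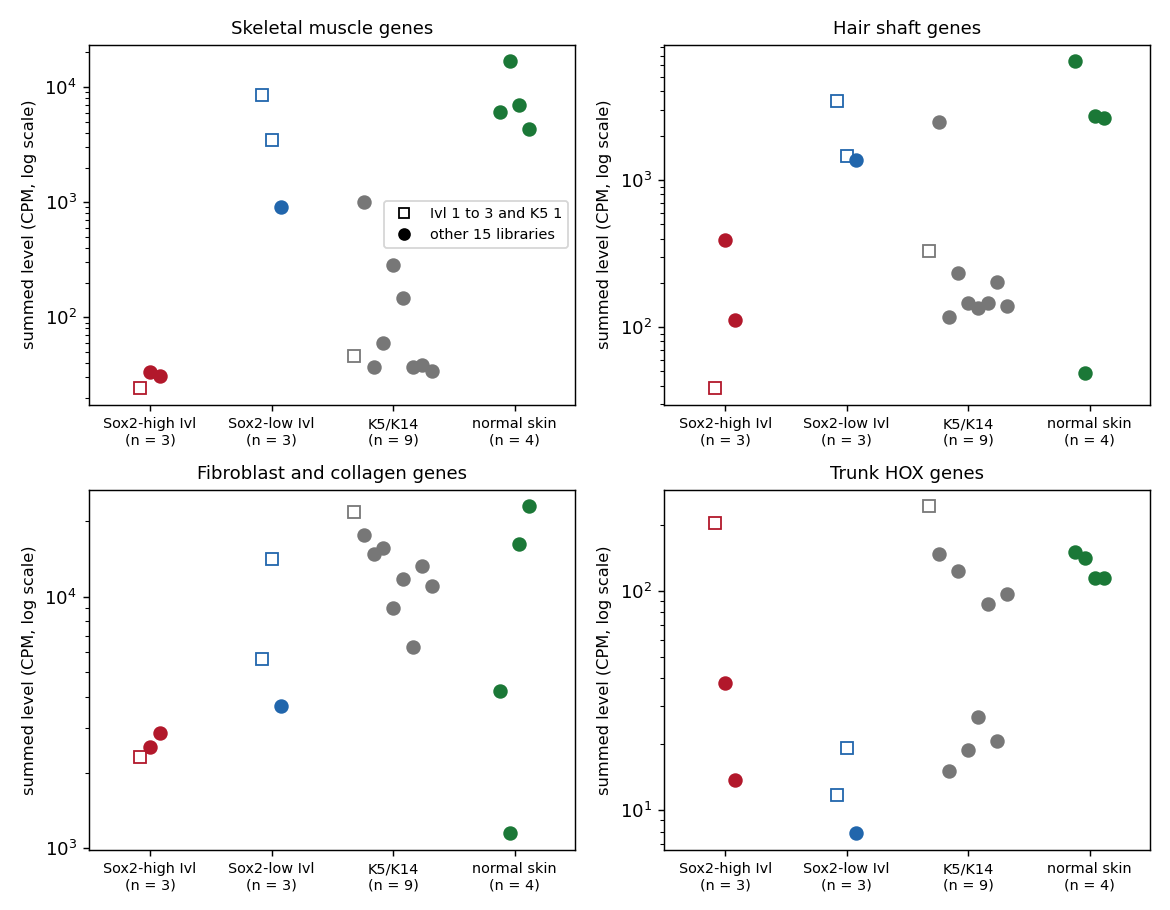
Summed level of 4 gene lists in CPM after TMM scaling (y axes, log scale) in each library by group (x axes), with open squares for Ivl 1 to 3 and K5 1. The Sox2-high tumours hold 24.2 to 33.1 CPM of skeletal muscle RNA against 902 to 8540 CPM in the Sox2-low tumours, and fibroblast and collagen genes 2297 to 2870 CPM against 3671 to 14090 CPM.

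Lower genes were also found in lists of skin structures and stroma. Of 14 dermal papilla genes, which mark the mesenchymal niche where Sox2 is normally found, 7 were lower and none was higher, with a median of -2.60. Lepr, the leptin receptor, stood at 1.23, 3.45 and 3.49 CPM against 14.3, 35.0 and 16.3 CPM. The Wnt inhibitor gene Wif1 stood at 0.0768, 0.556 and 0 CPM against 8.39, 17.9 and 13.5 CPM. The other 5 were Prom1, Rspo3, Tbx18, Corin and Fgf7. All 14 members had a lower value outside the set too, with a median of -1.91 there and none passing the test. The count of 7 was 1 without Ivl tumour 1, 4, 2, 4 and 2 without tumours 2 to 5, and 9 without tumour 6.

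Of 16 hair follicle progenitor and matrix genes 5 were lower. Sox9, which maintains hair follicle stem cells, stood at 8.745, 19.09 and 11.99 CPM in the high tumours and 49.8, 86.4 and 22.5 CPM in the low ones (-1.99 ± 0.39, adjusted p 0.00940). Outside the set its difference was -0.53. The others were Bmp4, Nfatc1, Lef1 and Gata3. The list median of -1.76 became -0.59 outside the set, and the count of 5 was 0 without tumour 1, 3, 1, 3 and 2 without tumours 2 to 5, and 10 without tumour 6. None of 26 hair shaft genes passed the test, although 24 were lower in every high tumour and the median was -4.11. Over all genes 12.9% were lower in every high tumour. The hair shaft sum was 38.5, 391 and 112 CPM in the high tumours against 3442, 1446 and 1376 CPM, and the skin samples ranged from 49.1 to 6436 CPM.

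Of 14 Schwann cell and nerve genes 6 were lower and 1, Gap43, was higher. Sox10, the regulator of Schwann cells, stood at 0.154, 0.834 and 0.422 CPM against 4.06, 7.43 and 2.02 CPM, with log2 fold changes of -5.20 within and -1.68 outside the set. The 6 lower calls became 0 without tumours 1, 3 or 5 and with the set as a covariate, 3 without tumours 2 or 4, and 8 without tumour 6. Of 14 endothelial genes 3 were lower, among them Tek, the angiopoietin receptor, at 3.14, 6.11 and 6.84 CPM against 14.91, 30.00 and 15.98 CPM, and 0 were called without tumours 1, 3, 4 or 5 and 5 without tumour 6. None of 17 fibroblast and collagen genes passed, with a median of -1.44 that was -0.20 outside the set. Col1a1 stood at 488, 363 and 455 CPM in the high tumours and at 1182, 3211 and 395 CPM in the low ones, which overlap. Of 14 Merkel cell genes, Cck and Syp were lower and none was higher, with 0 calls without tumours 1, 3, 4 or 5, 1 without tumour 2 and 3 without tumour 6. Of the immune lists, 1 gene was lower of 10 B and plasma cell (Ighm), 13 dendritic cell and MHC class II (Zbtb46) and 9 neutrophil chemokine (Ppbp) genes. Over all genes 4.45% were lower. The count in each was 0 without tumours 1, 3, 4 or 5. No member of the macrophage, neutrophil, T cell, mast cell or interferon lists passed. Without tumour 6 the dendritic list had 3 lower genes, the interferon list 5 and the T cell list 2. The sebaceous gland list had 2 lower genes, Soat1 and Scd1, and the melanocyte and activated stroma lists 1 each, Mitf and Fap, and all had 0 without tumour 1.

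Of 18 FGF and BMP genes 7 were lower and 1 was higher. The ligand gene Bmp4 stood at 1.26, 2.98 and 1.52 CPM in Sox2-high tumours and at 8.90, 13.8 and 6.30 CPM in Sox2-low tumours (-2.33 ± 0.42, adjusted p 0.00631), or -3.17 within and -1.48 outside the set. Bmp2 followed with 7.02, 4.33 and 6.28 CPM against 16.7, 24.5 and 21.2 CPM, and differed by -1.996 outside the set. Fgf1, Fgf2, Fgf7, the receptor gene Fgfr1 and the BMP antagonist gene Nog were lower too. The activin and BMP antagonist gene Fst went up, with 106, 81.7 and 91.4 CPM against 22.4, 25.9 and 8.55 CPM (2.29 ± 0.51, adjusted p 0.0193). No gene of this list passed without tumour 1, and the 7 lower calls became 4 without tumour 2, 2 without tumours 3, 4 or 5, and 8 without tumour 6.

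Of 16 Wnt pathway genes 4 were lower. Axin2, the feedback target of canonical Wnt signalling, stood at 7.04, 9.51 and 11.5 CPM against 29.6, 32.7 and 16.4 CPM (-1.49 ± 0.28, adjusted p 0.00766), and Nkd1, Lef1 and Wif1 changed in the same direction. The list median of -1.02 was -0.08 outside the set, and the count of 4 was 0 without tumour 1, 3, 1, 2 and 1 without tumours 2 to 5, and 5 without tumour 6. Of 10 Hedgehog genes 1 was higher and 1 lower. The signal transducer gene Smo was slightly higher, at 136, 109 and 113 CPM against 90.4, 73 and 85.2 CPM, and no Hedgehog gene passed without any of tumours 1 to 5. The EMT regulators Zeb1, Cdh2 and Prrx1, the STAT3 list genes Il6st and Fgl2 and the Notch target gene Hey2 were lower, and none of these 3 lists had a higher gene. They had 0 lower genes without tumours 1, 3, 4 or 5. Of 20 stemness genes Lgr5, Lgr6 and Prom1 were lower and none was higher. Lgr5, which marks hair follicle stem cells, stood at 0.430, 1.21 and 0.375 CPM against 22.5, 25.5 and 4.58 CPM. The count of 3 was 1 without tumours 1, 3 or 4, 2 without tumour 5 and 5 without tumour 6.

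HOX genes record position along the body: they are switched on along the trunk and limbs and are silent in the face. Of 14 trunk HOX genes 2 were higher in Sox2-high tumours and none was lower. Over all genes 0.556% were higher. For 10 of the 14, every high tumour lay above all low tumours, against 7.81% of all genes. The median log2 fold change was 7.84, or 5.10 with 7 genes set to their bound. Hoxc8 was read at 2849, 27 and 8 counts in the high tumours and 0, 1 and 0 counts in the low ones, a ratio of 3250 (583 to 128000) that tumour 1 dominates. Hoxc6 stood at 18.5, 1.25 and 1.41 CPM against 0.263, 0.368 and 0 CPM (5.03 ± 1.23, adjusted p 0.0289). Hoxa7 stood at 45.8, 25.5 and 4.10 CPM against 0.213, 0.276 and 0 CPM but had an adjusted p of 0.0713. Most of the trunk HOX level lay in Ivl tumour 1, with a sum of 204 CPM against 38.1 and 13.7 CPM in tumours 4 and 5 and 7.86 to 19.2 CPM in the low tumours. The same sum was 15.1 to 243 CPM in K5/K14 tumours, where Sox2 was lower still, and 115 to 150 CPM in skin. The 243 CPM was K5 tumour 1, which belongs to the set of 4. The next highest K5/K14 value was 147.5 CPM, in K14 tumour 1. In CPM of the library total, the mean sum was 109.9 over the set of 4 and 88.9 over the other 15 libraries. It was 48.4 over the 11 tumours among those 15. The part of the batch correction in these levels was not tested. Without tumour 1 the median log2 fold change was 3.36 and none passed, and none passed without tumours 2 or 3.

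Of 13 anterior HOX genes 3 were higher. Their sum was 17.2 to 54.5 CPM in the high and 0.751 to 5.88 CPM in the low tumours. In K5/K14 tumours it was 5.98 to 106 CPM, and in skin 19.4 to 75.3 CPM. The 106 CPM was again K5 tumour 1, with 33.4 CPM in K5 tumour 4 the next highest. Hoxa4 had 283, 43 and 49 counts against 0 in all 3 low tumours and was at least 36.6-fold higher. Hoxa2 had 97, 24 and 3 counts against 1, 0 and 1, a ratio of 69.8 (18.9 to 583). Hoxa5 stood at 12.8, 20.0 and 4.19 CPM against 1.03, 0.551 and 0.0193 CPM, with an adjusted p of 0.0572. The anterior list had 0 calls without tumour 1, 0 without tumour 3 and 1 without tumours 2, 4 or 5. HOX genes overlap antisense transcripts, 255 exonic bases in Hoxa4 and 586 in Hoxa7, and the strand setting of the counting is not given in the sources used here. No listed HOXD gene passed, Hoxd8 standing at 4.10, 3.99 and 4.19 CPM against 7.14, 13.0 and 5.26 CPM and Hoxd11 at 8, 3 and 1 counts against 0, 0 and 1.

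Of 20 genes of craniofacial identity 5 were lower and 1 was higher, with a median of -2.015, and -2.004 outside the set. The calls became 0 in both directions without tumour 1, and there were 4 lower without tumour 2, 2 lower without tumour 3, 1 lower without tumours 4 or 5, and 7 lower without tumour 6. Their summed level was higher in the high tumours, at 271.9, 348.7 and 314.2 CPM against 93.0, 122 and 300.1 CPM, and Pitx1 made up most of it in the high tumours. Alx1, needed for the frontonasal skeleton, had 0, 0 and 1 count in the high tumours and 18, 55 and 112 counts in the low tumours, a ratio of low to high of 164 (29.1 to 6520). Otx1, a homeobox gene of the anterior head, stood at 0.123, 0.615 and 1.78 CPM against 7.14, 7.29 and 64.0 CPM. Pax3, of the neural crest, stood at 0.415, 0.258 and 0.164 CPM against 1.43, 4.10 and 2.74 CPM (-3.28 ± 0.67, adjusted p 0.0111). Lhx6 and Foxd1 were lower as well. Pax9, of the oral and pharyngeal epithelium, was higher, with 9.898, 11.97 and 15.41 CPM against 0.919, 0.735 and 2.87 CPM (3.05 ± 0.65, adjusted p 0.0147). Its K5/K14 mean was 10.7 CPM. The body site of each tumour was not tested and cannot be told apart from the Sox2 grouping with these labels.

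**Figure D5:**
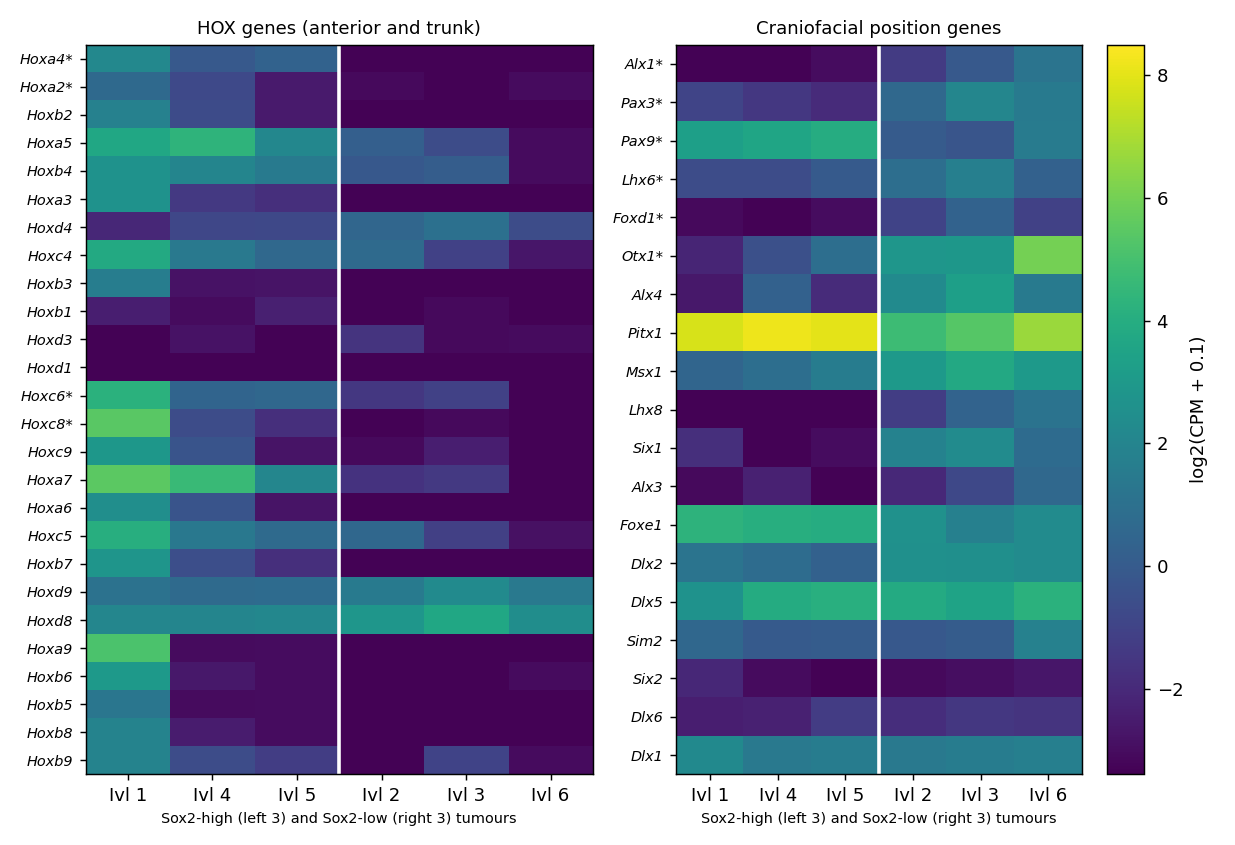
Level of anterior and trunk HOX genes (left) and craniofacial genes (right) as log2(CPM + 0.1) in colour, with genes in rows and the 6 Ivl tumours in columns, Sox2-high to the left of the white line. An asterisk marks genes that passed the test; trunk HOX genes peak in Ivl tumour 1 (45.8 CPM for Hoxa7) and Otx1 in Ivl tumour 6 (64.0 CPM).

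Of the squamous circuit of Sox2, neither Pitx1, Trp63 nor Klf4 passed the test. Pitx1, a homeobox gene of hindlimb and oral epithelium (chromosome 13, 55825051 to 55836192), stood at 218, 295 and 255 CPM in Sox2-high tumours and at 27.1, 41.0 and 104 CPM in Sox2-low tumours. The groups did not overlap, with a log2 fold change of 2.16 ± 0.65, but the adjusted p of 0.0613 missed the threshold. Trp63 differed by 0.34 ± 0.21 (adjusted p 0.336) and Klf4 by 0.18 ± 0.34 (adjusted p 0.806). Klf4 stood at 743, 879 and 1111 CPM in the high and at 565, 857 and 985 CPM in the low tumours. Of 21 squamous transcription factors 1, Sox9, was lower and none was higher, with 0 calls without tumours 1, 3 or 5. Over all genes 4.45% were lower, so this count is near that share. With DESeq2, with the 15 tumours alone and without tumour 6, 1 was higher and 1 lower. With the 6 Ivl tumours alone 1 was higher and 0 were lower.

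Krt13, the keratin of oral and oesophageal epithelium (chromosome 11, 100117327 to 100121566), stood at 985, 2446 and 2592 CPM in the high tumours and at 252, 79.9 and 281 CPM in the low ones. It was 3.30 ± 0.99 higher on the log2 scale, with an adjusted p of 0.0630, 2.57 within the set and 3.16 outside it. The K5/K14 mean was 11.96 CPM and the skin mean 0.748 CPM. Its partner Krt4 overlapped between groups, at 17.5, 6.95 and 82.0 CPM against 9.62, 4.15 and 30.3 CPM (adjusted p 0.477). Of 21 oral and mucosal genes Upk3bl, a uroplakin-like gene, was higher, with 2.63, 5.40 and 2.88 CPM against 0.410, 0.505 and 0.828 CPM (adjusted p 0.0435), and Krt19, a keratin of simple and follicular epithelium, was lower. Neither count held when tumours 1, 2, 3 or 4 were left out, with 0 calls each. Involucrin itself (Ivl) stood at 151, 464 and 569 CPM against 276, 81.4 and 398 CPM, an overlap (adjusted p 0.5682). No member of the basal, spinous, cornified, small proline-rich protein or stress keratin lists passed.

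All 20 proliferation genes had a positive fold change, with a median of 0.39, and none passed the test. Genes at or above a mean of 10 CPM had a median of 0.13. Mki67 stood at 433, 359 and 404 CPM against 304, 382 and 378 CPM. Outside the set 7 of the 20 were negative and the median was 0.16. All 18 MYC target and ribosome biogenesis genes were positive as well, with a median of 0.52, and Srm, the spermidine synthase gene, passed with 80.1, 93.2 and 101 CPM against 44.0, 41.9 and 71.5 CPM (0.80 ± 0.23, adjusted p 0.0460). Outside the set 3 of the 18 were negative, with a median of 0.20. Gpx2, a glutathione peroxidase, was the only 1 of 16 NRF2 genes called, at 161, 206 and 213 CPM against 30.7, 36.0 and 84.2 CPM. The death receptor gene Tnfrsf10b was the 1 apoptosis gene of 18 called, rising by 0.74 ± 0.19 on the log2 scale (adjusted p 0.0336). In each of the MYC, NRF2 and apoptosis lists 0 genes passed when any of tumours 1 to 5 was left out, and without tumour 6 there were 8, 5 and 2 higher.

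The study's list of genes shared by its tumours was chosen on these libraries and is not independent evidence of a direction. Of 245 of its genes tested 10 were higher and none was lower. They include Gsto1, a glutathione transferase, at 1797, 2090 and 1815 CPM against 545, 317 and 971 CPM, and the phosphatase gene Ptprz1 at 325, 266 and 243 CPM against 73.4, 38.1 and 145 CPM. The list median was 0.45, and -0.20 within the set, and the 10 became 1 without tumour 1, 4, 3, 4 and 3 without tumours 2 to 5, and 49 without tumour 6. The second study list holds top genes, by a positive log2 fold change, between Ivl tumours with and without a SOX2 transgene. Which of the 2 was the reference is not spelled out in the study's methods. Per the study's methods those tumours were sequenced separately after depletion of ribosomal RNA, and whether any library used here entered the list is not given in the sources used here. Of 128 of these genes tested besides Sox2, none was higher and 54 were lower, with a median of -5.33, and -4.04 outside the set. The 54 became 2 without tumour 1, 23, 19, 11 and 7 without tumours 2 to 5, and 73 without tumour 6. The 16 shared with the muscle list had a median of -9.13, and the other 112 had 43 lower, none higher and a median of -4.21. Of the 112, 18 had a positive fold change. The muscle list is short, and the 112 still hold muscle genes. Among them are Trim63 and Ckmt2, with ratios of low to high of 1150 (207 to 45700) and 955 (264 to 7890). The 112 are therefore not a list free of muscle.

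Promoters were read from RefSeq (GRCm38.p6), from 250 bases before to 50 after the annotated start, and 124 of the 178 higher genes had one. The SOX core motif CATTGTT, on either strand, was present in 5 of the 124 (4.03%), in 24 of 876 promoters of lower genes (2.74%) and in 412 of 16201 promoters of all genes tested (2.54%). The windows around the motif in the 5 are shown so that the matches can be read, on the strand of the gene, with the motif in capitals.
Adgrg7, chr16:56796067-56796093: tttccttgacAACAATGtttccctatc
Bmpr1b, chr3:141982472-141982498: tttaagatgtCATTGTTtggacaaaac
Fhdc1, chr3:84480485-84480511: gggtaggcagCATTGTTacctgcagcg
Smg9, chr7:24399472-24399498: cgcccagagaAACAATGcgcacgcgcc
Syne3, chr12:104998798-104998824: gctctttccgAACAATGcccttgcagg
Syne3, chr12:104998651-104998677: ggaggaccagCATTGTTgaggggtccc

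Bmpr1b, a BMP receptor gene, stood at 5.04, 7.74 and 7.26 CPM in the high and 3.43, 2.14 and 0.905 CPM in the low tumours (1.63 ± 0.42, adjusted p 0.0341). Syne3, which links the nuclear envelope to the cytoskeleton, was higher by 1.22 and Adgrg7, an orphan adhesion receptor gene, by 4.86. Fhdc1 and Smg9 rose by 0.65 and 0.48. A match describes these letters and not binding by SOX2.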

How the data were processed

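RNA was sequenced as indexed poly(A) libraries made with a strand-specific kit. The deposited values are estimated counts per gene: per the labels and the study's methods, the authors trimmed reads with Trim Galore, checked them with FastQC 0.11.8, aligned them with HISAT2 2.1.0 to GRCm38 and counted them with featureCounts (Subread 1.6.3), and corrected the counts for batch with ComBat-seq, so that they are whole numbers but not raw counts. Batch correction can move levels and spread between libraries, and which libraries formed each batch is not given in the sources used here. No library or gene was imputed.

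The 34807 gene IDs were named from GENCODE mouse release 21, on GRCm38, and 0 values changed on rounding. Genes with at least 5 counts in 1 library were kept. edgeR 4.0.16 in R 4.3.3 (TMM scaling, robust quasi-likelihood test, Benjamini-Hochberg adjustment) was fitted to all 19 libraries as Sox2-high Ivl, Sox2-low Ivl, K5/K14 and skin, with 15 residual degrees of freedom; Sox2 was left out of testing. The standard error is the absolute log2 fold change divided by the root of the F statistic. The study's DESeq2 Wald test (DESeq2 1.42.0) and other libraries, scaling, filters and forms of Sox2 were tried as alternatives. The fit was tested on simulated counts for 32031 genes, where it recovered 22% of genes changed 2-fold and 96% of those changed 16-fold. It also called 10 unchanged genes. The simulated libraries had no batch structure and a common mean for the Ivl tumours, and genes of low count were not changed. The rates may therefore not hold for the real libraries. Intervals and limits of 3 counts cover counting error only.

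Named genes were the 10 protein-coding genes per direction with the smallest p among those changed more than 2-fold without overlap between groups, list members that were called or of high level, and 6 genes the study discusses. The members and the lists were chosen with earlier results of these data known. Lists are described by counts and medians, without a set test. Some genes of the lists are not reported here by name or drawn, though counts and medians include them.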

Additional observations from a re-analysis of the deposited data

Results flagged for a closer look

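A sample far from the others of its group was looked for in the 26 genes named by the rule, in 78 groups of 4 to 9 samples, and 7 were found. The limit flags about 1 in 20 groups of normally spread values. Levels in CPM need not be so spread, and many of the genes were chosen for a split of the Ivl tumours, so the chance rate here is not known. In the Ivl tumours, Smco1 stood at 2.04 CPM in tumour 2, with 0.616 CPM the next highest, and Krt4 at 82.0 CPM in tumour 5, with 30.3 CPM the next. In the K5/K14 tumours, Pitx1 stood at 6.29 CPM in K5 tumour 1, with 50.5 CPM the next lowest, Ddx59 at 30.1 CPM in K5 tumour 2, with 22.6 CPM the next highest, and Kcnc1 at 0.221 CPM in K14 tumour 1. Gpr22 in K5 tumour 1 (0.0159 CPM) and Isx in skin sample 4 (0.00976 CPM) were the only values above 0 in their groups, a pattern that is always flagged.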

How the results depend on the processing

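No paired analysis was possible because no replicate number is shared by Sox2-high and Sox2-low Ivl tumours. The counts of genes called are given as higher and lower in Sox2-high tumours, with their sum, beside 178, 1426 and 1604. They were 14, 223 and 237 with the 6 Ivl tumours alone (fewer samples), 73, 265 and 338 with the set of Ivl 1 to 3 and K5 1 as a covariate, 0, 1 and 1 without that set, and 685, 2855 and 3540 with DESeq2. Leaving out each Ivl tumour in turn gave 13 to 1243 higher, 73 to 3246 lower and 86 to 4489 in all, the lowest without tumour 1 and the highest without tumour 6. In alternatives added after seeing the data, the contrast within the set called 702 higher, the contrast outside it 0, 0 and 0, and leaving out Ivl tumours 2 and 3, with high Rn7sk, 1, 1 and 2. Another scaling, both other filters, the tumours without skin and Sox2 as a continuous covariate stayed within 1.5 times, as did the lower and total counts within the set, 17 of 54 counts in all; the cause of the other 37 was not tested. Directions of uncalled genes turned as follows. Krt4 was -0.27 without tumour 5 (to 2.36 over the left-out tumours). Klf4 was -0.036 with the set as a covariate, -0.082 without tumours 2 and 3 and -0.016 to 0.36 with each tumour left out, and Ivl -0.25 within the set. Krt5 was 0.28 without the set and 0.28 outside it, 0.039 with Sox2 continuous and -0.37 to 0.33 with each tumour left out, positive without tumours 1 and 2. Krt14 was 0.012 without the set and 0.012 outside it, 0.076 with Sox2 continuous and -0.48 to 0.46 with each left out, positive without tumour 1 and, at 0.25, tumour 6. Of all 1604 called genes, 1469 kept their direction outside the set and without it and 1480 without tumours 2 and 3. The filter on the 6 tumours tested fewer genes, with 1288 in the same direction, and under the other choices at least 1602 were. Counts within lists also depended on the test. With DESeq2, 11 of 14 trunk and 9 of 13 anterior HOX genes were higher, and 1 of each list was lower. Lower with DESeq2 were 4 hair shaft, 3 fibroblast and collagen, 3 T cell and 3 interferon genes, and none of these 4 lists had a higher gene. In simulated counts without batch structure 78% of 4-fold changes were recovered, and 22% of 2-fold ones, so that smaller differences may be missed.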
